A study of Mus musculus with 8 samples.

Results

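MHC class I antigen presentation was followed through 10 genes, *H2-K1*, *H2-D1*, *B2m*, *Tap1*, *Tap2*, *Tapbp*, *Psmb8*, *Psmb9*, *Psmb10* and *Nlrc5*, which were picked by symbol from the 55276 symbols kept of the deposited expression tables. All 10 were present and all passed the filter on low values in every comparison, so no member was left out. RNA had been sequenced from GFP+ fibro-adipogenic progenitors (FAPs), mesenchymal cells of skeletal muscle, in 8 libraries: 2 of control and 2 of Osr1cKO FAPs at 3 days post-injury (dpi), and as many at 7 dpi. Each 3 dpi library came from 1 mouse and each 7 dpi library from a pool of 4 mice, aged 4 to 6 months.

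Control mice were Osr1 flox/+ and Osr1cKO mice Osr1 flox/flox, and both carried CAGG CreER, a tamoxifen-inducible Cre under a promoter active in most tissues. Both received tamoxifen on the day of freeze-pierce injury, which was set in the tibialis anterior, and on the following days, and the sorted cells of both carry at least 1 recombined allele in which eGFP takes the place of *Osr1*, a zinc finger transcription factor. The controls are therefore heterozygous for *Osr1*, and recombination was not restricted to FAPs, so the muscle around the sorted cells was also exposed to Cre. In all results the 7 dpi libraries differ from those of 3 dpi by day and by pooling, and perhaps by sequencing instrument, since the labels name 75-base reads throughout while the methods also name 100-base reads. These cannot be told apart.

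Nearly every nucleated cell shows fragments of its own proteins on MHC class I molecules, where cytotoxic T cells and natural killer cells read them. Proteasomes cut the proteins, the TAP transporter carries the peptides into the endoplasmic reticulum, and tapasin holds an empty class I molecule beside TAP until a peptide fits. Interferons raise the whole set through STAT and IRF factors and through NLRC5, a nuclear protein without a DNA-binding domain of its own that acts at class I promoters on a module of sites called S, X and Y, in which CREB-type factors bind the X2 part and NF-Y binds the CCAAT-like Y part.

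The members lie in a few places of the mouse genome. In GRCm38, 7 of the 10 are on chromosome 17. *Tapbp* (chr17:33915899-33929292, plus strand), *H2-K1* (chr17:33996017-34000347, minus strand), *Psmb9* (chr17:34181987-34187764, minus strand), *Tap1* (chr17:34187553-34197225, plus strand), *Psmb8* (chr17:34197721-34201454, plus strand), *Tap2* (chr17:34203527-34216321, plus strand) and *H2-D1* (chr17:35262730-35267499, plus strand) stand there in this order. *B2m* is at chr2:122147686-122153083 on the plus strand, *Nlrc5* at chr8:94434356-94527272 on the plus strand and *Psmb10* at chr8:105935735-105938444 on the minus strand. *Psmb9* and *Tap1* are read away from each other, and their RefSeq start sites have 225 bases between them.

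RefSeq promoter windows of the same assembly (GRCm38.p6, 250 bases before to 50 bases after the start) were given for 8 of the 10 members, all but *Tap2* and *Nlrc5*. The stretches upstream of *H2-K1* (chr17:34000348-34000597, minus strand) and *B2m* (chr2:122147437-122147685, plus strand) are shown because the heavy chain and the light chain they drive moved closely together in the libraries. Capitals mark the κB motif, TGACG (the core letters of a CREB site), ATTGG, which is CCAAT on the other strand, and, in *B2m*, an interferon-stimulated response element (GAAA, 2 further bases of any kind and GAAA).
H2-K1: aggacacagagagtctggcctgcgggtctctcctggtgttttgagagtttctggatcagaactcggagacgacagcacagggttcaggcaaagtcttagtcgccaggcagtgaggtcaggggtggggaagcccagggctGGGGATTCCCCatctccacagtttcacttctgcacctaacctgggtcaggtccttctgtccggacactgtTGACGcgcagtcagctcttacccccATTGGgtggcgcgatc
B2m: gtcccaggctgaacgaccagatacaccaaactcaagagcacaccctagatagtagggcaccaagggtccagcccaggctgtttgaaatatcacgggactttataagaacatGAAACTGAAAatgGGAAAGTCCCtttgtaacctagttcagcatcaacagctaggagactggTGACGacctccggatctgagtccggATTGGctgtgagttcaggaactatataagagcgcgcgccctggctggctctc
In both, TGACG is followed after 20 bases by ATTGG, and *H2-D1* holds the same arrangement. These 30-base stretches, at chr17:34000359-34000388 (minus strand), chr2:122147609-122147638 and chr17:35262993-35263022 (both plus strand), are set side by side to show the spacing. The bases between differ in *B2m*, while those of *H2-K1* and *H2-D1* are alike at many positions.
H2-K1: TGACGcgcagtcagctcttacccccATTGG
B2m: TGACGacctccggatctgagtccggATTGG
H2-D1: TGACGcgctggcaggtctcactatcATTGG
The *H2-D1* stretch lies before the RefSeq start, while the GENCODE gene begins further upstream. The arrangement was chosen after the matches had been seen, and 26 of 27025 promoter windows, or 0.0962%, hold it on either strand. Among single motifs, searched on both strands, CCAAT was found in 6 of the 8 member windows (37.9% of all windows), TGACG in 5 (21%), the κB motif in 3 (4.35%), the interferon-stimulated response element in 1, *B2m* (3.49%), and TTCNNNGAA, the interferon-gamma activated site, in 1, *Psmb8* (8.47%). The *Tap1* and *Psmb9* windows overlap and share the same CCAAT and the same TGACG bases. Each of these sites was therefore counted for both members. The window of *Psmb10* held none of these letters. For *Tapbp* and *Psmb8*, as for *H2-D1*, the GENCODE gene begins before the whole window. All bases before the RefSeq start lie in annotated exons for *H2-D1*, *Tap1*, *Tapbp*, *Psmb8* and *Psmb9*, so the *Psmb8* match is exonic. Only exact matches to the letters were counted, so a site that departs from them was missed. The absence of a match is therefore not the absence of a site. A match is a description of the letters and not evidence of binding, and no binding was measured in these samples.

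Depth was high for the members. The files give TPM, a share of transcripts per gene length, and multiplying by exon length recovered between 36516528 and 51096358 fragments per library. The members themselves held between 245 fragments (*Nlrc5* in Osr1cKO replicate 2 at 3 dpi) and 59389 (*B2m* in control replicate 1 at 3 dpi). *Osr1* had 105 and 91 TPM in controls against 70.7 and 71.9 TPM in Osr1cKO FAPs at 3 dpi, and 67.6 and 71.6 against 64.4 and 60.8 TPM at 7 dpi, so its groups did not overlap at either day. Which exons these fragments came from was not analysed here. The paper reports from its reads that the floxed exon was efficiently deleted and that the exon after it was not expressed. The gates of the sort included CD45, CD31 and TER119 as markers of other cells, and FAP markers summed to between 26500 and 54300 TPM. Among markers of other cells, *Ptprc*, the pan-leukocyte CD45, was at most 0.216 TPM, and *Ms4a1* (B cells) and *Cd8a* (cytotoxic T cells) were at 0 in all 8 libraries. Others were present: *Cd79a*, also a B cell gene, had 4.18 to 11.4 TPM, the macrophage markers *Cd68* and *Lyz2* 6.87 to 17.4 and 2.55 to 36.1 TPM, the endothelial receptor *Tek* 14.9 to 58.4 TPM, muscle actin *Acta1* 1.64 to 28.7 TPM and the globin *Hbb-bs* up to 34.6 TPM. Of the other endothelial markers, *Emcn* was at most 0.693 TPM and *Cldn5* at most 1.11 TPM.

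One library stood apart in this gene set. Centred on the mean of their day, the members averaged 0.83 and 0.36 in the control libraries of 3 dpi, 0.04 in Osr1cKO replicate 1 and -1.22 in Osr1cKO replicate 2, on the log2(TPM + 1) scale used throughout. At 7 dpi the same average stayed between -0.11 and 0.13. The 3 dpi genotype values of the members rest in large part on Osr1cKO replicate 2, and log2 fold changes without it are given after them.

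**Figure D1:**
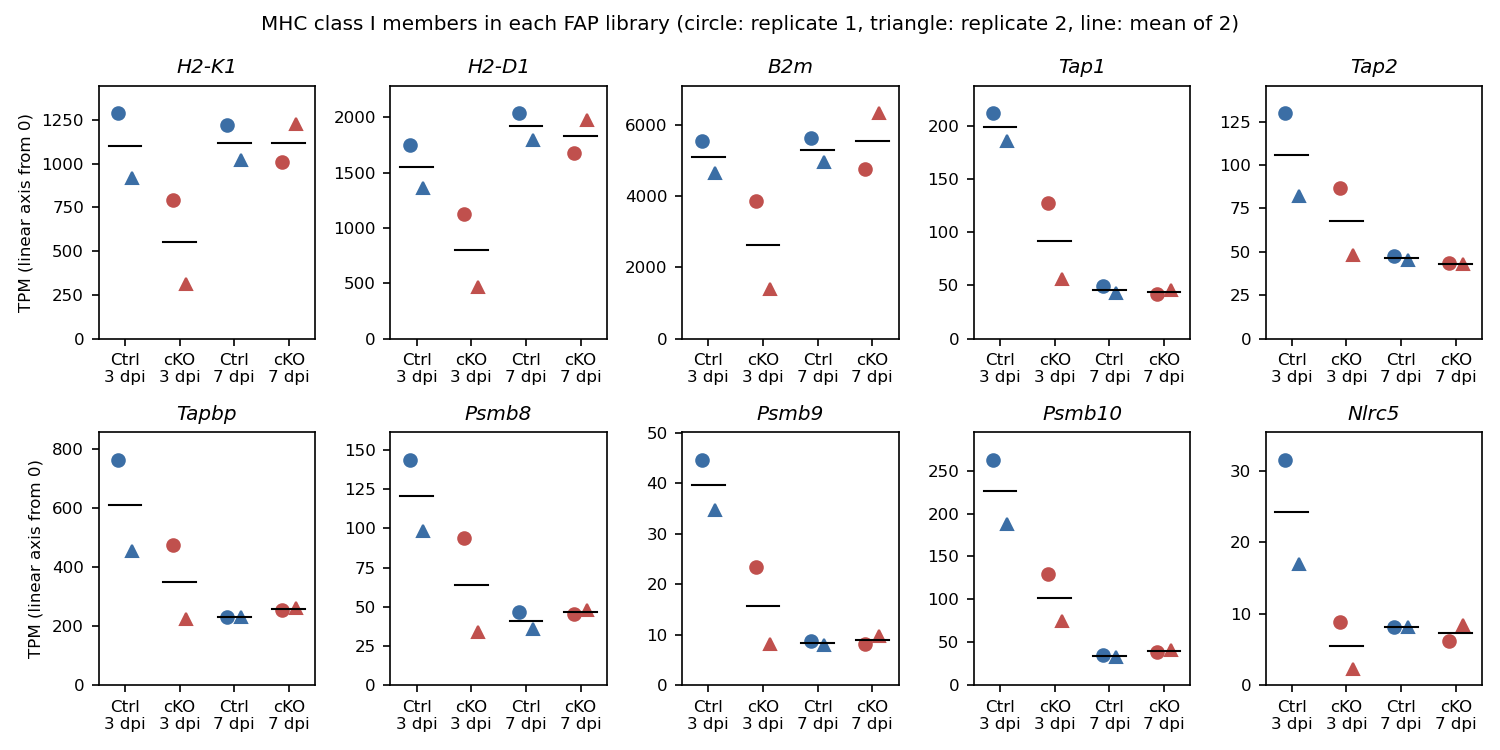
TPM of each member (vertical axis, linear from 0) in the 8 FAP libraries by genotype and day (blue, control; red, Osr1cKO; circle, replicate 1; triangle, replicate 2; line, mean of the 2 libraries). Osr1cKO replicate 2 is the lowest of the 4 libraries of 3 dpi in all 10 panels, and the 4 libraries of 7 dpi span at most 1.35-fold in any panel.

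The first question was whether loss of *Osr1* changed class I presentation genes in FAPs early after injury. At 3 dpi all 10 members had a lower mean in Osr1cKO than in control FAPs under each scaling tried, and *Tap1*, *Psmb9*, *Psmb10* and *Nlrc5* passed the test of that day (fold change over 1.2 and unadjusted p under 0.05 by limma), between 2.28-fold and 4.34-fold lower. Over all 15697 genes tested, 4.08% were called lower and 2.2% higher under this rule. No member, and no gene at all, passed a Benjamini-Hochberg adjusted p under 0.1, and 986 genes had an unadjusted p under 0.05 where 785 would by chance. The median log2 fold change was -1.15 over the members and -0.01 over all genes tested.

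The heavy chains H2-K and H2-D, which hold the peptide, and β2-microglobulin, their light chain, were among the most abundant transcripts of these cells. *H2-K1* stood at 1290 and 919 TPM in control libraries and at 791 and 313 TPM in those of Osr1cKO FAPs at 3 dpi. *H2-D1* had 1750 and 1360 TPM in controls against 1130 and 465 TPM in Osr1cKO FAPs. *B2m* had 5540 and 4650 TPM in controls against 3850 and 1380 TPM in Osr1cKO FAPs. In each case the genotypes did not overlap, but Osr1cKO replicate 1 was closer to the nearest control than to its own replicate: for *B2m* it stood at 0.83 of control replicate 2 while Osr1cKO replicate 2 stood at 0.297. None of the 3 passed the test, with log2 fold changes of -1.15 (SE 0.48), -1.11 (SE 0.46) and -1.16 (SE 0.54). *B2m* was the 11th to 18th most abundant entry in 3 of these libraries and the 90th in Osr1cKO replicate 2.

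TAP is a pair of half-transporters, Tap1 and Tap2, and tapasin (*Tapbp*) bridges it to class I molecules. *Tap1* had 212 and 186 TPM in controls against 127 and 56.3 TPM in Osr1cKO FAPs, which was 2.36-fold lower (log2 fold change -1.24, SE 0.40, unadjusted p = 0.0271, Benjamini-Hochberg adjusted p = 0.771 by limma). *Tap2* had 130 and 82.3 TPM against 86.7 and 48.3 TPM, and *Tapbp* 765 and 456 TPM against 474 and 225 TPM. For these last members the groups overlapped, since Osr1cKO replicate 1 lay above control replicate 2, and their log2 fold changes of -0.69 (SE 0.36) and -0.87 (SE 0.44) did not pass. *Tap1* exceeded *Tap2* by 1.63 and 2.26 times in control and by 1.47 and 1.17 times in Osr1cKO libraries.

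The catalytic subunits *Psmb8*, *Psmb9* and *Psmb10* replace *Psmb5*, *Psmb6* and *Psmb7* in the immunoproteasome, which cuts peptides with ends that suit class I grooves. *Psmb8* had 144 and 98.2 TPM in controls against 93.8 and 34.1 TPM in Osr1cKO FAPs. The groups were separated by a narrow gap, and the change did not pass (log2 fold change -1.07, SE 0.51). *Psmb9* had 44.7 and 34.6 TPM against 23.3 and 8.2 TPM, 2.73-fold lower (log2 fold change -1.45, SE 0.49, unadjusted p = 0.0309, adjusted p = 0.775 by limma). *Psmb10* had 263 and 188 TPM against 129 and 74.4 TPM, 2.28-fold lower (log2 fold change -1.19, SE 0.32, unadjusted p = 0.0143, adjusted p = 0.771 by limma). *Psmb10* had the smallest p of the 10. None of the constitutive partners passed, with log2 fold changes of 0.12 for *Psmb5*, 0.04 for *Psmb6* and 0.26 for *Psmb7*.

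Set within each library, these levels give the mix of inducible and constitutive transcripts. The ratio of *Psmb10* to *Psmb7* was 2.54 and 2.33 in control and 1.17 and 0.666 in Osr1cKO FAPs at 3 dpi. *Psmb9* to *Psmb6* was 0.261 and 0.186 in control and 0.122 and 0.0457 in Osr1cKO FAPs. *Psmb8* to *Psmb5* was 0.685 and 0.388 in control and 0.368 and 0.135 in Osr1cKO FAPs. No ratio overlapped between the genotypes, although for *Psmb8* the nearest libraries differed little.

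*Nlrc5*, the class I transactivator, was the member with the largest fold change. It had 31.6 and 16.9 TPM in controls against 8.84 and 2.2 TPM in Osr1cKO FAPs, 4.34-fold lower (log2 fold change -2.12, SE 0.61, unadjusted p = 0.0179, adjusted p = 0.771 by limma). The control libraries themselves differed, with replicate 2 at 0.533 of replicate 1, and the Osr1cKO libraries differed more, with replicate 2 at 0.249 of replicate 1. At 3 dpi *Nlrc5* spanned 14.4-fold from the lowest to the highest library, against 2.69-fold to 5.45-fold for the other members.

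Counted over the members, 8 of 10 had no overlap between the genotypes at 3 dpi, Osr1cKO being lower, all but *Tap2* and *Tapbp*, and 19.4% of all genes tested were arranged this way. The calls moved with single libraries. Without control replicate 1 no member was called lower (2.37% of all genes), without control replicate 2 there were 2 (11.5%), without Osr1cKO replicate 1 all 10 (3.41%) and without Osr1cKO replicate 2 the 4 named above (1.91%). In such fits the spread comes from the genotype that keeps 2 libraries, and the lone library is assumed to vary like it, so these counts show only how far the calls move. Without Osr1cKO replicate 2 the median was -0.45. *Nlrc5* then stood at -1.29, *Psmb10* at -0.77, *Psmb9* at -0.73 and *Tap1* at -0.63, and the members not called at -0.45 (*H2-K1*), -0.44 (*H2-D1*), -0.39 (*B2m*), -0.33 (*Psmb8*), -0.31 (*Tapbp*) and -0.25 (*Tap2*). In bulk RNA, fewer cells of a responding kind and less RNA per cell cannot be told apart.

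**Figure D2:**
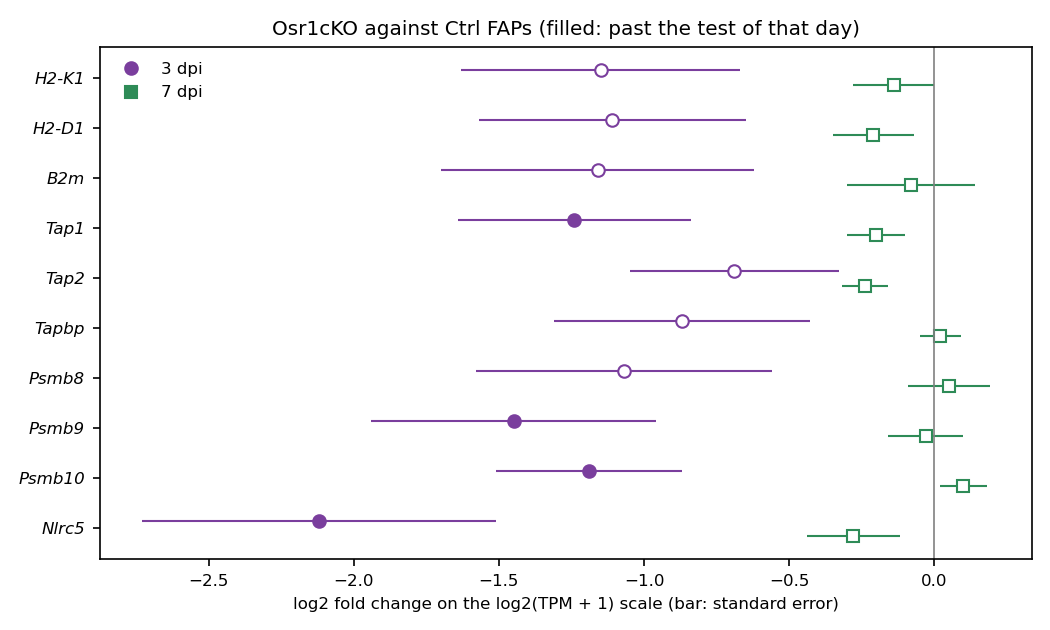
Log2 fold change of Osr1cKO against control FAPs (horizontal axis, on the log2(TPM + 1) scale) for each member at 3 dpi (purple circles) and 7 dpi (green squares); bars are standard errors and filled symbols passed that day's test. At 3 dpi all 10 points lie below 0 with 4 filled, while at 7 dpi all points lie between -0.28 and 0.10 and none is filled.

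Other genes of the pathway, listed by role with earlier results of these data known, fell into groups that differed at 3 dpi. Of 15 genes listed as other class I heavy chains and tested, 8 were called lower and none higher, with a median of -1.25. The median was -0.70 without Osr1cKO replicate 2. This list also holds the class I-like *Cd1d1*, *Mr1*, *Fcgrt* and *Hfe*, none of which was called. *H2-T22*, a nonclassical class I molecule, had 274 and 236 TPM in controls against 165 and 71 TPM in Osr1cKO FAPs (log2 fold change -1.24, SE 0.42). *H2-K2* (-1.75), *H2-T10* (-1.41) and *H2-T24* (-1.88) were also called lower, but genes of this family share long stretches of sequence, so how fragments were divided among them is uncertain. Of 11 genes of peptide loading and trimming 1 was called, *Tapbpl*, which encodes the tapasin-related peptide editor, at 56.7 and 39.6 against 30.6 and 23.2 TPM (-0.83, SE 0.24). It was not called without Osr1cKO replicate 2 (-0.61). *Erap1*, the aminopeptidase that trims peptides in the endoplasmic reticulum, had a log2 fold change of -0.47 and did not pass, nor did *Uggt1* at 0.27 and *Thop1* at 0.22.

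Proteasome genes outside the inducible set were mostly not called. Of 9 activator and assembly genes only *Psme1*, one of the interferon-inducible PA28 activator chains, passed, with 217 and 166 TPM in controls against 140 and 79.8 TPM in Osr1cKO FAPs (-0.86, SE 0.32). Without Osr1cKO replicate 2 it stood at -0.43 and was not called. Its partner *Psme2* had a log2 fold change of -0.58 and did not pass, and *Psme4* at 0.22 and *Psmg4* at -0.18 did not either. None of 11 other subunits of the 20S core and none of the 3 constitutive catalytic subunits was called.

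Regulators of the pathway were called in 4 of 25 cases, all lower, with a median of -0.09 over the 25. *Irf7*, a factor that amplifies type I interferon production, had 872 and 528 TPM in controls against 384 and 87.8 TPM in Osr1cKO FAPs (-1.89, SE 0.73). *Stat2*, part of the type I interferon signalling complex, had 210 and 123 TPM against 98.6 and 35.6 TPM (-1.44, SE 0.54). *Irf2* (-0.46) and the signalling inhibitor *Socs1* (-0.40) also passed, while *Irf1*, a direct activator of *Tap1* and *Psmb9*, had 134 and 86.3 against 80.7 and 50.9 TPM and did not (-0.75, SE 0.32). Without Osr1cKO replicate 2 none of the 25 regulators was called, with *Irf7* at -0.81 and *Stat2* at -0.70. Of 8 interferon genes 2 had enough fragments to be tested at 3 dpi and both were called lower. *Ifnb1*, the type I interferon beta, had 15.6 and 10.9 TPM in controls against 4.43 and 1.02 TPM in Osr1cKO FAPs (-2.10, SE 0.52), and *Ifna4* had 5.87 and 4.34 against 1.83 and 0.408 TPM (-1.61, SE 0.39). Without Osr1cKO replicate 2 both were called, at -1.37 and -1.09.

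Markers of other cells were low beside the members. Over the 3 dpi libraries, myeloid markers summed to between 27.2 and 32.6 TPM, lymphoid markers to between 4.36 and 11.9 TPM, and genes of MHC class II presentation to between 5.57 and 8.32 TPM, against 2610 to 10200 TPM for the 10 members. Endothelial markers summed to 44.7 TPM in control replicate 1, the library in which the members were highest, and to between 17.2 and 21.6 TPM in the rest. The excess lay in *Kdr* (16.8 against at most 2.25 TPM) and *Tek* (25.4 against at most 16.5 TPM). Every other marker of that list was at most 1.19 TPM in control replicate 1, and *Cdh5*, *Emcn* and *Cldn5* were higher in control replicate 2. Of the single markers, *Cd14* was called higher (0.81), and *Cd74* (-0.81) and the FAP marker *Ly6a*, which encodes Sca1 (-0.96), were called lower, and none of them was called without Osr1cKO replicate 2 (0.41, -0.41 and -0.64). *Ly6a* had 5410 and 4230 TPM in controls against 3060 and 2020 TPM in Osr1cKO FAPs, the highest in control replicate 1 and the lowest in Osr1cKO replicate 2, as all members were. An antibody to the Ly6A/E protein was part of the sort's staining panel. The part of these markers in the result was not tested.

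The second question was whether the genotypes still differed at 7 dpi. No member passed the test of that day (fold change over 1.2 and adjusted p under 0.1 by limma), nor did any at an unadjusted p under 0.05 with the same fold change, and limma-voom on the recovered fragments called 0 members as well, with 2.01% of all genes lower and 0.599% higher. By limma, 0.0483% of 16576 genes tested were called lower and 0.0181% higher, or 6.02% and 5.09% at an unadjusted p under 0.05. Log2 fold changes of the members ran from -0.28 for *Nlrc5* to 0.10 for *Psmb10*, with a median of -0.11 against 0.00 for all genes. On the deposited TPM without further scaling the median of all genes was 0.11 and that of the members 0.03, so the sign of the members' median depends on the scaling.

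The chains of the class I molecule were again abundant at 7 dpi. *H2-K1* had 1220 and 1020 TPM in controls against 1010 and 1230 TPM in Osr1cKO FAPs. *H2-D1* had 2040 and 1800 against 1680 and 1980 TPM. *B2m* had 5630 and 4950 against 4750 and 6330 TPM. In all 3 the ranges of deposited TPM overlapped between genotypes.

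Transport and loading genes were close between genotypes. *Tap1* had 49.4 and 42.4 TPM in controls against 41.7 and 45.9 TPM in Osr1cKO FAPs. *Tap2* had 47.5 and 45.4 against 43.5 and 42.8 TPM, the smallest p of the members at 7 dpi (log2 fold change -0.24, SE 0.08, unadjusted p = 0.0256, adjusted p = 0.337 by limma), with a fold change of 1.18 that is under the threshold. *Tapbp* had 231 and 231 against 253 and 262 TPM, which became a log2 fold change of 0.02 (SE 0.07) after scaling.

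Immunoproteasome subunits and *Nlrc5* were low in both genotypes. *Psmb8* had 46.6 and 35.6 TPM in controls against 45.2 and 47.8 TPM in Osr1cKO FAPs, and *Psmb9* 8.69 and 7.97 against 8.21 and 9.67 TPM. *Psmb10* had 34.7 and 32.3 against 38.7 and 40.5 TPM (log2 fold change 0.10, SE 0.08), and *Nlrc5* 8.16 and 8.12 against 6.18 and 8.37 TPM. On scaled TPM the genotypes did not overlap for 4 members that were lower (*H2-D1*, *Tap1*, *Tap2* and *Nlrc5*) and for *Tapbp* and *Psmb10*, which were higher, where 23.3% and 22.6% of all genes were so arranged. None of the 15 genes listed as other heavy chains and none of 25 regulators passed the 7 dpi test. At an unadjusted p under 0.05 with the fold threshold, 7 of the regulators were lower, against 6.02% of all genes by that rule. So were 4 of the heavy chain list, *H2-Q4*, *H2-T23* and the class I-like *Fcgrt* and *Hfe*. The class I-like *Cd1d1* was higher, against 5.09% of all genes. In 16 of the regulators the genotypes did not overlap on scaled TPM, with lower values in Osr1cKO, against 23.3% of all genes. On the deposited TPM the genotypes overlapped for most of these 16, *Irf7* and *Stat2* among them. Interferon genes were too low to be tested there.

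Whether the genotype effect itself differed between the days was tested with an interaction term over all 8 libraries. The term was above 0 for all 10 members, between 0.44 for *Tap2* and 1.82 for *Nlrc5*, with a median of 1.05 against 0.01 for 17367 genes tested. No member and no gene passed an adjusted p under 0.05 by limma, so that 0% were called, and limma-voom called 0 members. At an unadjusted p under 0.05 there were 3 members, *Psmb10* (1.29, SE 0.37), *Nlrc5* (1.82, SE 0.72) and *Psmb9* (1.40, SE 0.57), and 3.77% of all genes were higher by that rule. A difference of the genotype effect between 3 and 7 dpi was thus not shown for any single member after adjustment.

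The third question was how the pathway changed between 3 and 7 dpi within a genotype. In control FAPs all 7 members of transport, loading, immunoproteasome and transactivation fell, by between 1.92-fold and 5.65-fold, while the class I chains were not called. Over 16522 genes tested, 22.3% were called lower and 28% higher (adjusted p under 0.1 and fold change over 1.2 by limma), and 55.7% of the calls were higher, or 41.5% on TPM without further scaling. These comparisons use the same libraries as the genotype comparisons above and are not independent of them.

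*Psmb10* fell the most of the members in control FAPs, from 263 and 188 TPM to 34.7 and 32.3 TPM (log2 fold change -2.50, SE 0.18, adjusted p = 0.00423 by limma). *Psmb9* fell from 44.7 and 34.6 to 8.69 and 7.97 TPM (-1.92, SE 0.17) and *Tap1* from 212 and 186 to 49.4 and 42.4 TPM (-1.89, SE 0.13). *Psmb8* (-1.32), *Nlrc5* (-1.21), *Tapbp* (-1.15) and *Tap2* (-0.94) also fell, with adjusted p between 0.0137 and 0.0329. In every case both 7 dpi libraries lay below both 3 dpi libraries, as did 33.3% of all genes. The calls rest on the 7 dpi control libraries: without replicate 2 of these, limma called 0 genes and so no member, although *Tap1*, *Psmb8*, *Psmb9* and *Psmb10* kept an unadjusted p under 0.05. Without replicate 1 fewer members were called, and fewer of all genes. Whichever control library was left out, the median of the members stayed between -1.57 and -0.81.

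The class I chains took another course. *H2-K1* changed by 0.23 (SE 0.23), *H2-D1* by 0.52 (SE 0.22, adjusted p = 0.12) and *B2m* by 0.26 (SE 0.31) between the days in control FAPs, and none passed. The balance within libraries thus differed between the days. There were 6.08 and 4.94 TPM of *H2-K1* per TPM of *Tap1* in control FAPs at 3 dpi and 24.7 and 23.9 at 7 dpi, and the Osr1cKO libraries had 6.22 and 5.56 at 3 dpi and 24.2 and 26.7 at 7 dpi. *H2-D1* per *Tap1* ran from 7.31 to 8.87 over the libraries of 3 dpi and from 40.3 to 43.1 over those of 7 dpi, with no overlap of the days. At 3 dpi both Osr1cKO libraries (8.87 and 8.26) lay above the controls (8.24 and 7.31), and at 7 dpi the genotypes overlapped.

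In Osr1cKO FAPs the picture was partly turned. *H2-D1* rose from 1130 and 465 to 1680 and 1980 TPM (log2 fold change 1.40, SE 0.42, adjusted p = 0.0444 by limma), *H2-K1* by 1.23 (SE 0.44, adjusted p = 0.0693) and *B2m* by 1.32 (SE 0.51, adjusted p = 0.0867). *Psmb10* fell from 129 and 74.4 to 38.7 and 40.5 TPM (-1.22, SE 0.26, adjusted p = 0.0164). The other 6 members did not pass, with log2 fold changes from -0.87 for *Tap1* to 0.60 for *Nlrc5*. Over 16277 genes tested, 32.3% were called higher and 24% lower, so the counts of members lie near or below these shares. Osr1cKO replicate 2 of 3 dpi decided the size: the median of the members was -0.25 with both libraries, -0.90 without replicate 2 and 0.37 without replicate 1. The difference between the genotypes in the day change is the interaction term given above.

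**Figure D3:**
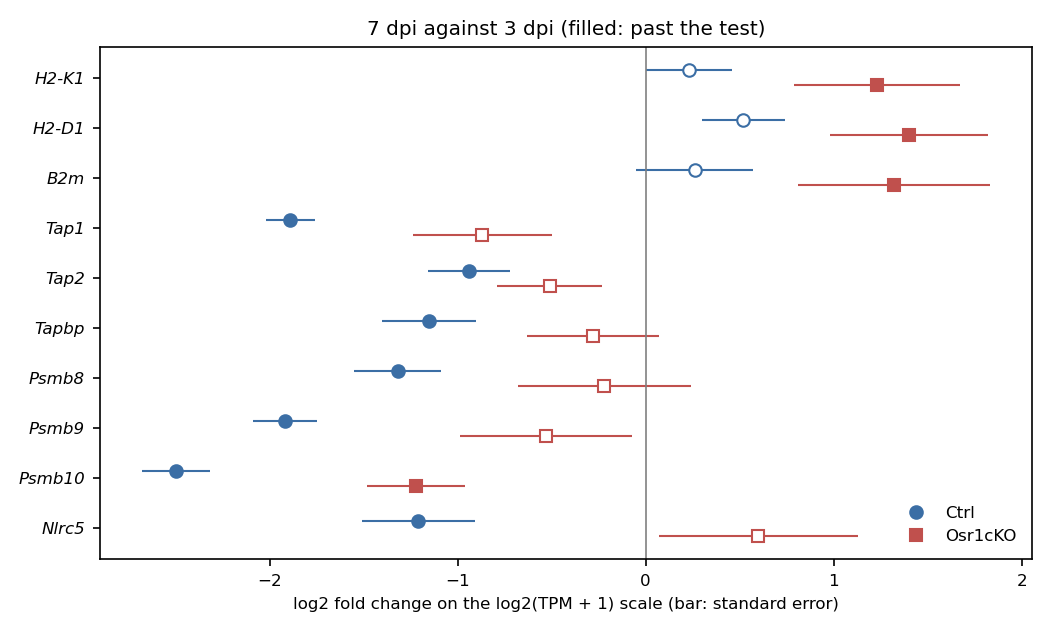
Log2 fold change from 3 to 7 dpi (horizontal axis, on the log2(TPM + 1) scale) for each member in control (blue circles) and Osr1cKO FAPs (red squares); bars are standard errors and filled symbols passed the test. In control FAPs the 7 members from *Tap1* to *Nlrc5* are filled and below 0, and in Osr1cKO FAPs the 3 class I chains are filled and above 0 with *Psmb10* filled below 0.

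Constitutive proteasome genes also fell between the days. In control FAPs *Psmb5* changed by -1.14, *Psmb6* by -0.62 and *Psmb7* by -0.48, all called, and in Osr1cKO FAPs by -1.11, -0.50 and -0.52, all called. All 11 other 20S core subunits were called lower in both genotypes, with medians of -0.85 and -0.53, where 22.3% and 24% of all genes were called lower. The ratio of *Psmb10* to *Psmb7* came to 0.578 and 0.6 in control and 0.524 and 0.553 in Osr1cKO FAPs at 7 dpi, below all 4 libraries of 3 dpi. For *Psmb8* to *Psmb5*, in contrast, the libraries of 7 dpi (0.369 to 0.464) lay within the range of those of 3 dpi (0.135 to 0.685).

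Regulators split between the days. *Irf7* fell in control FAPs from 872 and 528 to 114 and 124 TPM (-2.30, SE 0.25), while *Irf1* rose from 134 and 86.3 to 256 and 255 TPM (1.44, SE 0.21). In Osr1cKO FAPs *Irf1* rose by 1.65 (SE 0.27). Of the 25 regulators, 9 were called higher and 2 lower in control FAPs, where 28% and 22.3% of all genes were. In Osr1cKO FAPs 7 were called higher and 2 lower, against 32.3% and 24% of all genes. Both interferon genes tested fell in control FAPs, with log2 fold changes of -3.18 for *Ifnb1* and -2.40 for *Ifna4*. Several lists of markers of other cells summed higher at 7 dpi: erythroid markers summed to 11.7 to 54.2 TPM after at most 1.47, muscle cell markers to 31 to 54.8 TPM after at most 9.12, and class II genes to 18.6 to 36 TPM after at most 8.32. Myeloid markers summed to 55.5 to 93.7 TPM after at most 32.6, and endothelial markers to 47.6 to 72.6 TPM after at most 44.7. Lymphoid markers overlapped between the days, at 4.36 to 11.9 and 8.71 to 16.2 TPM. Their part in the changes between days was not tested.

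**Figure D4:**
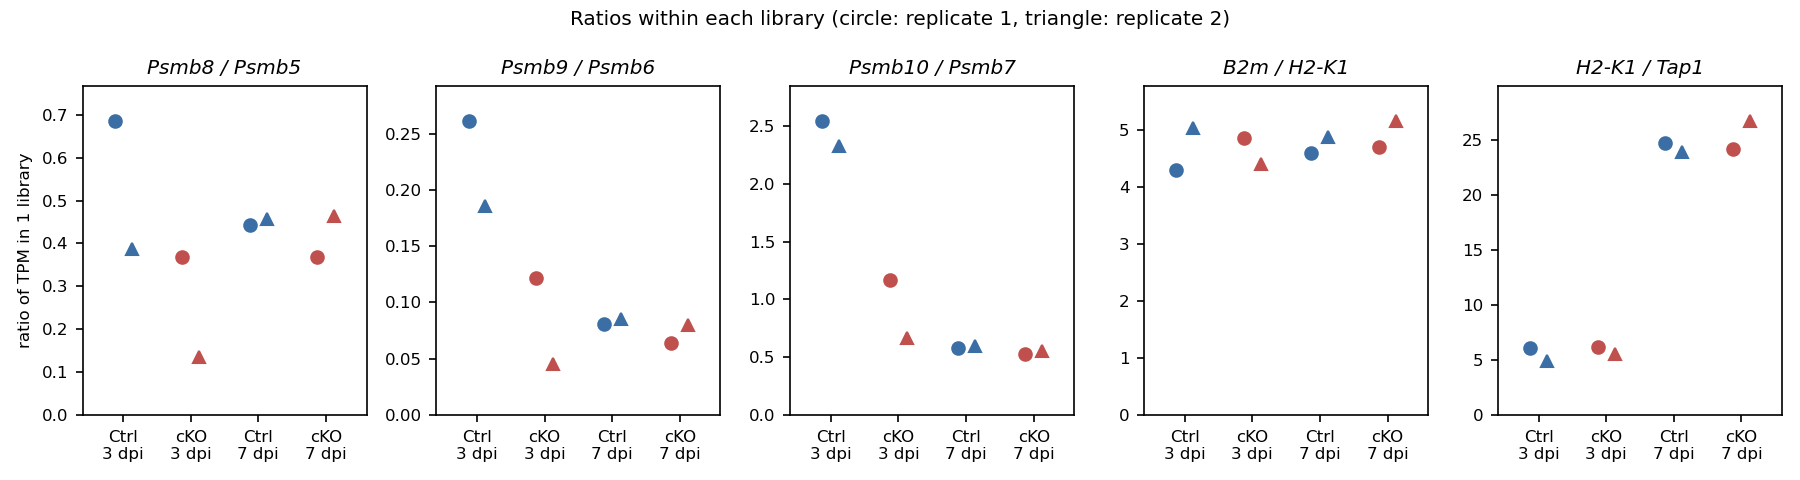
Ratios of TPM within each library (vertical axes, linear from 0; blue, control; red, Osr1cKO; circle, replicate 1; triangle, replicate 2) for inducible over constitutive proteasome subunits, *B2m* over *H2-K1*, and *H2-K1* over *Tap1*. *Psmb10* over *Psmb7* ranges from 0.524 to 2.54, *B2m* over *H2-K1* stays between 4.3 and 5.16, and *H2-K1* over *Tap1* separates the days.

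Some proportions between members varied less than the members themselves. *B2m* was between 4.3 and 5.16 times *H2-K1* in all 8 libraries, while *B2m* itself spanned 4.59-fold. *H2-D1* was between 1.36 and 1.78 times *H2-K1*, lower at 3 dpi (1.36 to 1.49) than at 7 dpi (1.61 to 1.78). *Psmb9*, the neighbour of *Tap1*, was between 0.146 and 0.21 times *Tap1* while *Tap1* spanned 5.09-fold and *Psmb9* 5.6-fold, and this ratio was lower in Osr1cKO libraries at 3 dpi (0.183 and 0.146 against 0.21 and 0.186) and higher at 7 dpi (0.197 and 0.21 against 0.176 and 0.188). The 212 exonic bases the neighbours share on opposite strands make up 3.9% of *Tap1* and 5.8% of *Psmb9* exons.

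Ordered by TPM averaged within groups, *B2m* led in all 4 groups, followed by *H2-D1* and *H2-K1*, with *Tapbp* next and *Nlrc5* last. *H2-D1* exceeded *H2-K1* within every library, by 1.36 to 1.78 times. Their spread between libraries was wide in Osr1cKO FAPs at 3 dpi (797 ± 469 and 552 ± 339 TPM, SD, n = 2). *Psmb9* and *Nlrc5* could not be ordered in control FAPs at 7 dpi (8.33 ± 0.511 and 8.14 ± 0.0288 TPM). *Psmb10* exceeded *Tap1* in both control libraries of 3 dpi (226 ± 53.3 against 199 ± 18.6 TPM, SD, n = 2), narrowly in replicate 2 (188 against 186 TPM). It was below *Tap1* in both control libraries of 7 dpi (33.5 ± 1.74 against 45.9 ± 4.92 TPM). The order was the same in Osr1cKO FAPs, with *Psmb10* above *Tap1* in both libraries of 3 dpi (129 and 74.4 against 127 and 56.3 TPM). At 7 dpi it was below *Tap1* in both (38.7 and 40.5 against 41.7 and 45.9 TPM). The group means there were 102 ± 38.7 against 91.8 ± 50.2 TPM at 3 dpi and 39.6 ± 1.28 against 43.8 ± 3 TPM at 7 dpi. These orders were not tested. *Tap2* and *Tap1* could not be ordered in control FAPs at 7 dpi (46.4 ± 1.49 and 45.9 ± 4.92 TPM).

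The tested genes whose profile was most like that of the members were ranked by Pearson's r with the members' mean over the 8 libraries, with each day centred on its own mean. The first were *H2-Q6* (r = 0.998) and *H2-Q5* (0.996), further class I heavy chains, then *Dhx58* (0.994), *Ly6e*, *Irf7*, *Gbp3*, *Ifi47* and *Trim14* (all 0.993), and *Psme1* and *H2-T23* (both 0.992), out of 17357 genes compared. Most of them are known as interferon-induced genes. The value is a description: the 8 points come in 4 groups, and the low Osr1cKO replicate 2 of 3 dpi weighs on every r. *H2-Q6*, for example, had 318, 159, 90.7 and 9.71 TPM over control replicates 1 and 2 and Osr1cKO replicates 1 and 2 at 3 dpi, and between 113 and 172 TPM at 7 dpi. *Trim14* went from 13.3, 8.06, 5.94 and 1.73 TPM to between 1.09 and 1.15 TPM.

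**Figure D5:**
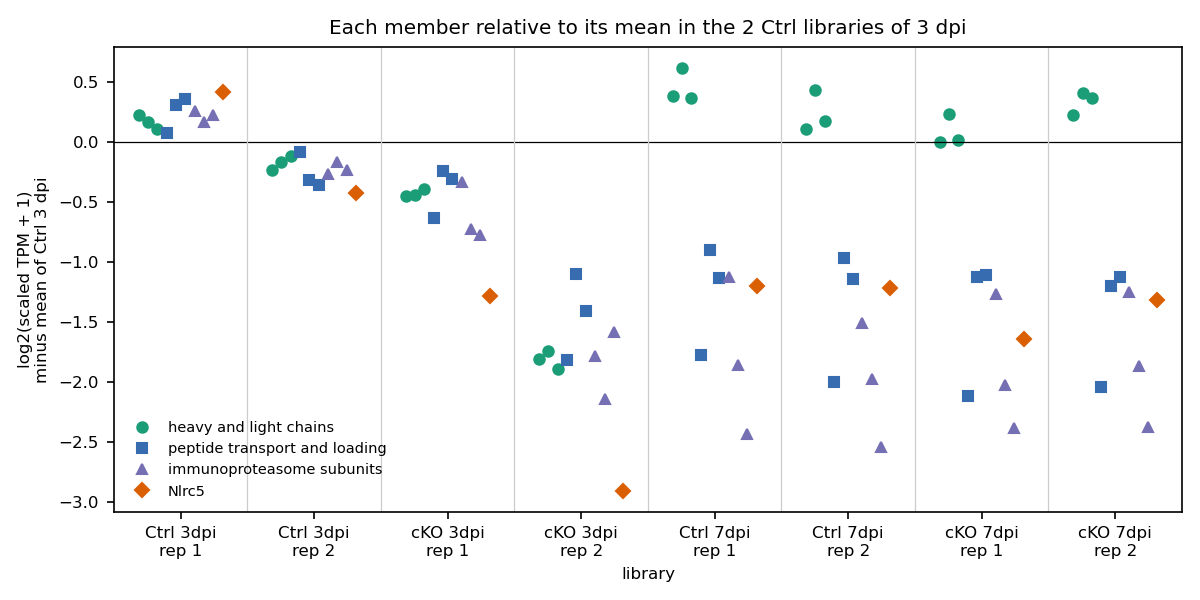
Each member's log2(scaled TPM + 1) minus its mean in the 2 control libraries of 3 dpi (vertical axis) in each of the 8 libraries (horizontal axis), with symbols by role. In Osr1cKO replicate 2 of 3 dpi all members lie below 0, and at 7 dpi the heavy and light chains lie at or above 0 while the other roles lie below 0.

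Sharing of reads could affect a few of these values. Of 75-base windows of the exons, 3.1% of *H2-K1*, 5.4% of *H2-D1* and 1.1% of *Tapbp* were found in another gene, and none of the other 7 members. Annotated genes on the opposite strand cover 24.9% of *Tapbp* exons, 14.7% of *Psmb8* and 14.1% of *Tap2*. The libraries were made to keep strand, but whether strand was used in counting is not given in the sources used here.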

How the data were processed

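RNA-seq of sorted GFP+ FAPs gave 8 libraries, 2 per genotype and day. The authors aligned stranded, polyA-selected reads to mm10 with STAR in Galaxy and deposited TPM per gene symbol, computed from fragment counts that they normalized with DESeq2. The counter, its annotation and its use of strand are not given in the sources used here. Of 55385 entries, 109 that repeated one of 106 symbols were dropped.

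Exon lengths of GENCODE M21 (GRCm38) turned TPM into fragments: 53281 symbols matched 1 gene, 1995 had no length, and between 98.7% and 98.9% of all values below 50 fragments came within 0.02 of whole numbers. This gave 36516528 to 51096358 fragments per library. Counting error is therefore small for the members, and n = 2 per group limits precision.

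Libraries were brought to a common scale with log ratios averaged after 30% trimming, and TPM was tested as log2(TPM + 1) with limma 3.58.1 (lmFit, eBayes with trend, R 4.3.3), over genes with at least 10 fragments in 2 libraries and 15 in all, or a mean TPM of at least 1 where no length was known. Fold changes on this scale are understated for low genes. Each genotype comparison was fitted on the 4 libraries of its day, each day comparison on the 4 libraries of its genotype, and the interaction on all 8. Calls followed the study's thresholds as given with each result, and p-values were Benjamini-Hochberg adjusted over all genes tested. The p-values measure the spread between libraries of single mice at 3 dpi and of pools at 7 dpi. The fit was also run on simulated counts with the same relative spread for every gene and library. The Osr1cKO replicates of 3 dpi differed by 1.74-fold (*Psmb10*) to 4.01-fold (*Nlrc5*) in the members. That run therefore cannot tell how the fit behaves on those libraries.

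The 10 members and all other lists were chosen with earlier results of these data known. Other genes were named by a rule: up to 4 per list with the smallest p at 3 dpi, plus *Osr1*, *Irf1*, *Psmb5*, *Psmb6* and *Psmb7*, and the 10 most alike. Genes the rule named among 20S core subunits, class II genes and cell type markers are mostly given through their list, and 1 gene is not reported here. *H2-T23*, *H2-Q5* and *H2-Q6* come from the last part. *H2-Q4*, *Cd1d1*, *Mr1*, *Fcgrt* and *Hfe* were named after their values were seen, to show what the heavy chain list holds. *Ptprc*, *Ms4a1*, *Cd8a*, *Lyz2*, *Hbb-bs*, *Cdh5*, *Emcn* and *Cldn5* were named as markers of other cells after their values were seen. Promoters came from RefSeq. Alternatives were other scalings, pseudocounts and filters, limma-voom on recovered fragments, robust eBayes, a fit of all libraries, a replicate block, other thresholds and leaving out each library. Figures and tables were made with Python 3.11.15, pandas 2.3.3, NumPy 2.4.6 and matplotlib 3.10.9.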

Additional observations from a re-analysis of the deposited data

Results flagged for a closer look

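*Psmb10* was singled out because every Osr1cKO library lay below every control library at 3 dpi (129 and 74.4 against 263 and 188 TPM) and above every control library at 7 dpi (38.7 and 40.5 against 34.7 and 32.3 TPM). The interaction of genotype and day was 1.29 on the log2 scale (unadjusted p = 0.00989, Benjamini-Hochberg adjusted p = 0.603 by limma), so the difference between the days did not pass after adjustment. The 7 dpi difference alone was 0.10 (SE 0.08) and did not pass either. With 2 libraries per group, no group was large enough for a search for single outlying samples.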

How the results depend on the processing

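With 2 libraries per group, single libraries decided much. Leaving out 1 library moved the members called lower at 3 dpi, 4 in all, between 0 and 10, and their median between -1.83 and -0.45. At 7 dpi the median moved between -0.23 and 0.01. Between days in control FAPs, members called higher ranged from 0 to 2, called lower from 0 to 7, and the median from -1.57 to -0.81. In Osr1cKO FAPs they ranged from 0 to 5 and from 1 to 6, and the median from -0.90 to 0.37, where *Psmb8* ranged from -0.96 to 0.49. The interaction median ranged from 0.36 to 1.68.

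Among other settings, the 3 dpi count of members called lower was 2 without a filter (2.32% of all genes), 9 with all 8 libraries in one fit (6.47%) and 0 at an adjusted p under 0.1. Without further scaling the 7 dpi median was 0.03, and 83% of genes with an unadjusted p under 0.05 were higher there against 45.8% with it, or 80.2% against 54.9% for the interaction. In control FAPs 1 member was called higher between the days with a filter on mean TPM (27.3% of all genes), with limma-voom (29.7%) and with robust eBayes (28.4%). In Osr1cKO FAPs 2 were called lower without further scaling (26.4% of all genes), with limma-voom (22.8%) and with all libraries in one fit (22.1%). There, 0 were called higher without a filter (15.1%). The interaction gave 3 members at an unadjusted p under 0.05 by limma (3.77% of all genes). The cause of these shifts was not tested.

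Over all genes, samples with the same replicate number did not deviate together (correlations of deviations from -0.14 to 0.06). A correlation over all genes cannot exclude that libraries were paired, and no pairing was used in the main fits. With a replicate block the 3 dpi count of members called lower was 10 (4.24% of all genes). With the crossed pairing, added after the data were seen, it was 4 at 3 dpi (5.02%) and 7 between the days in control FAPs (22.4%).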
